A study of Mus musculus with 48 samples.

Results

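The expression of 9 genes linked to cellular senescence and to arrest of the cell cycle was followed in mice under different diets, in white fat (WAT), brown fat (BAT) and liver. The genes were taken from a list of symbols and matched to the Ensembl identifiers of the deposited read count tables. All 9 were found among the 25913 identifiers. They are 5 inhibitors of cyclin-dependent kinases (Cdkn1a, Cdkn1c, Cdkn2a, Cdkn2b and Cdkn2c), the p53 target Trp53inp1, the secreted factors Gdf15 and Il6, and the nuclear lamina gene Lmnb1.

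Senescent cells have left the cell cycle for good while staying alive. Inhibitors of the CIP/KIP family (p21 from Cdkn1a, p27 from Cdkn1b, p57 from Cdkn1c) bind complexes of cyclins and their kinases, and inhibitors of the INK4 family (p16 from Cdkn2a, p15 from Cdkn2b, p18 from Cdkn2c, p19 from Cdkn2d) bind the kinases CDK4 and CDK6 and keep the retinoblastoma protein active. Senescent cells often lose lamin B1 and release a mixture of cytokines, chemokines and proteases, and fat is a tissue in which such cells are known to gather with age and obesity. Several of these genes have other roles: p21 and p18 also act in adipocyte formation, p57 comes from an imprinted gene, and GDF15 is a stress hormone that lowers appetite.

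The mice were C3B6F1 hybrids, all female, and carried no engineered allele according to the labels. AL stands for mice given as much food as they ate, and DR for mice held from 12 weeks of age at 60% of that intake. In the old switch groups the diet changed at 24 months of age, to restriction in ALDR and to full food in DRAL. In the young switch group, restriction lasted 2 months and death came at 5 months of age. The old groups carry the label 26 months although the protocol gives 27 months as the age at death, and all mice were killed within the 3 hours before a restricted mouse would have been fed. WAT gave 3 libraries each of AL and ALDR at 5 months and of AL and DR at 26 months, and 5 each of ALDR and DRAL at 26 months. In BAT the numbers were equal save for DRAL, with 3, and in liver there were 3 ALDR and 3 DRAL libraries at 26 months. The protocol calls both fat depots epididymal although the mice were female, so the depots are uncertain. The labels conflict on the BAT libraries: the sample descriptions call them single-end and polyA-enriched, while the extraction text repeats the rRNA-depleted, paired-end protocol of WAT and liver. The descriptions were followed, and levels were not compared between tissues.

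The 22 WAT libraries held 12247161 to 22500246 counts each, the 20 BAT libraries 6075585 to 19349912 and the 6 liver libraries 14678489 to 22893099. Levels are given in CPM (counts-per-million), with library sizes scaled by TMM. The 6 adipocyte markers summed to at least 14290 CPM in every WAT library, the 7 brown adipocyte markers to at least 3586 CPM in every BAT library and the 6 hepatocyte markers to at least 48270 CPM in every liver library, which fits the tissue labels. In liver they separated the groups, at 64020 to 74450 CPM in ALDR and 48270 to 54480 in DRAL. Skeletal muscle markers passed 2000 CPM in 3 WAT libraries (DR replicates 2 and 3 and ALDR replicate 2 at 26 months) and in 3 BAT libraries (AL replicate 2 at 5 months, DR replicate 3 and ALDR replicate 3 at 26 months). Markers of glandular epithelium summed to 4147 CPM in BAT ALDR replicate 5. Although the mice were female, 4 of 6 liver libraries (ALDR replicates 1 and 3, DRAL replicates 1 and 2) held 1 to 3 counts of the Y-linked gene Kdm5d and 2 to 12 of Ddx3y, with 0 in the other 2. Markers of other cells moved with diet in WAT. At 26 months the 8 macrophage markers summed to 1631 to 2540 CPM with AL feeding and to 579 to 810 CPM with DR, the 6 fibroblast markers to 4856 to 5962 and 2703 to 3515 CPM, and the 8 proliferation markers to 79.4 to 155 and 21.8 to 62.8 CPM. At 5 months the sums in AL and ALDR were 1275 to 1810 and 947 to 1220 CPM, 5994 to 6927 and 3846 to 5302 CPM, and 74.8 to 123 and 23.8 to 26.3 CPM. All of these markers had counts in every such library. In the old switch groups the fibroblast markers summed to 2459 to 3665 CPM in ALDR and 4717 to 6766 CPM in DRAL, without overlap, the macrophage markers to 1163 to 1680 and 972 to 2261 CPM, and the proliferation markers to 55.8 to 111 and 57.0 to 184 CPM. The part of these markers in the results on WAT was not tested. In BAT the brown adipocyte markers were lower in ALDR at 5 months and in DR at 26 months, while ALDR at 26 months overlapped AL (medians 5965 and 7992 CPM). They summed to 3890 to 5600 CPM in ALDR and 6726 to 9345 in AL at 5 months, and to 3586 to 4444 in DR, 5552 to 8180 in AL, 5465 to 8935 in ALDR and 5830 to 7506 in DRAL at 26 months. Hepatocyte markers were higher in the same BAT groups without overlap, at 92.8 to 203 CPM in ALDR and 6.87 to 11.1 in AL at 5 months, and at 52.5 to 77.4 in DR and 6.32 to 35.4 in AL at 26 months, with at most 3 of the 6 at 0 in a library. Mesothelial (20.2 to 36.9 against 5.51 to 6.31 CPM) and epithelial markers (28.5 to 65.0 against 5.24 to 11.1 CPM) were also higher in BAT ALDR than in AL at 5 months. In bulk tissue, fewer cells of a type and less RNA per cell cannot be told apart.

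The upstream sequences of Cdkn1a and Cdkn2b are shown because these genes were lower in restricted than in fully fed WAT in several of the same comparisons. RefSeq (GRCm38.p6) holds promoter entries for 6 of the 9 genes. Bases lying in an annotated exon were left off, so that the stretches are chr17:29090729-29090975 on the plus strand for Cdkn1a and chr4:89311040-89311282 on the minus strand for Cdkn2b, with the RefSeq starts at 29090979 and 89311032. Capitals mark matches to the motifs searched on both strands. Promoter boxes searched were the GC box GGGCGG, the CCAAT box and the TATA box TATAAA. Factor motifs searched were the E-box CACGTG, the FOXO core GTAAACA, the C/EBP core TTGCNNAA, the cAMP response element TGACGTCA, the AP-1 core TGANTCA and the p53 half-site.
Cdkn1a: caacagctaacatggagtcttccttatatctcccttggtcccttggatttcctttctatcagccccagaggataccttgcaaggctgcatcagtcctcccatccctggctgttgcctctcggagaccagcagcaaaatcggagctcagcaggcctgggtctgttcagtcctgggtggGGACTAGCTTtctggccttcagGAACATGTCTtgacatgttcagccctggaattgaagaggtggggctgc
Cdkn2b: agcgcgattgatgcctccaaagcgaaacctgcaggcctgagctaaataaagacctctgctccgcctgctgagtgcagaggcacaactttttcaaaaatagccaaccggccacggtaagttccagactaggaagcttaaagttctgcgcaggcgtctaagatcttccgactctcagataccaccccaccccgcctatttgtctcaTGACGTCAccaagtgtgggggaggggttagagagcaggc
The Cdkn1a stretch held 2 matches to the p53 half-site, starting 73 and 51 bases before the RefSeq start. Of 32851 upstream windows of 250 bases, 7.13% held at least 1 such match. The Cdkn2b stretch held 1 cAMP response element, 46 bases before its start, a motif found in 1.55% of windows. None of the 9 motifs was shared by these 2 windows. Cdkn2a has 2 RefSeq starts on the minus strand of chromosome 4, at 89294619 and 89282192, for transcripts that encode ARF and p16 from partly shared exons. The tables give 1 count per gene, so these products cannot be told apart here.

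In the GENCODE M21 annotation (GRCm38), Cdkn1a (ENSMUSG00000023067) lies at chr17:29090976-29100727 on the plus strand and Cdkn1c (ENSMUSG00000037664) at chr7:143458339-143461050 on the minus strand. Cdkn2a (ENSMUSG00000044303) at chr4:89274471-89294653 and Cdkn2b (ENSMUSG00000073802) at chr4:89306299-89311039 are neighbours on the minus strand, and Cdkn2c (ENSMUSG00000028551) lies at chr4:109660876-109667189, also on the minus strand. Trp53inp1 (ENSMUSG00000028211) lies at chr4:11156431-11174379 and Il6 (ENSMUSG00000025746) at chr5:30013114-30019981, both on the plus strand, Gdf15 (ENSMUSG00000038508) at chr8:70629393-70632456 on the minus strand and Lmnb1 (ENSMUSG00000024590) at chr18:56707813-56753424 on the plus strand. Cdkn1a and Cdkn1c each overlap an annotated gene on the other strand (AC167363.2 and Gm44732). Whether the authors counted by strand is not given in the sources used here, so reads of each pair may be mixed.

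Detection differed widely between the genes. A gene was taken as near the floor in a tissue when most of its libraries had under 10 counts. Il6 was near the floor everywhere: it had 44 counts in all over the 22 WAT libraries, 15 of which had at least 1, and 0 counts in all 20 BAT and all 6 liver libraries. A count of 0 allows up to 3 counts, which over all libraries of the tissue corresponds to 0.0101 CPM in BAT and 0.0263 CPM in liver, for counting error only. Cdkn2a and Gdf15 were also near the floor in BAT, with medians of 1 and 4 counts per library. Cdkn2a in WAT stood just above it, with 1 to 42 counts and under 10 in 8 of 22 libraries, and would fall under it with a minimum of 20 counts. In liver, Cdkn1a (5 to 72 counts) and Cdkn2a (7 to 16 counts) were not called near the floor but did not pass the filter on low counts. Tests were therefore possible for 8 of the 9 genes in WAT, 7 in BAT and 6 in liver.

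Per kilobase of exon, Cdkn2c was the most abundant of the 9 genes in WAT, with group means from 46.9 to 82.9 CPM per kb. Cdkn1c followed at 9.4 to 26.4, Trp53inp1 at 12.7 to 18.8 and Cdkn2b at 6.5 to 16.6 CPM per kb, while Cdkn1a had 2.53 to 8.21 and Cdkn2a 0.257 to 1.5. In BAT, Cdkn1a (15.5 to 42.5 CPM per kb) and Cdkn2c (25.7 to 33.9) stood highest, and Cdkn2b reached only 3 CPM per kb. In liver, Trp53inp1 led with 19.9 to 36.8 CPM per kb, against 0.141 to 0.442 for Cdkn1a.

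**Figure D1:**
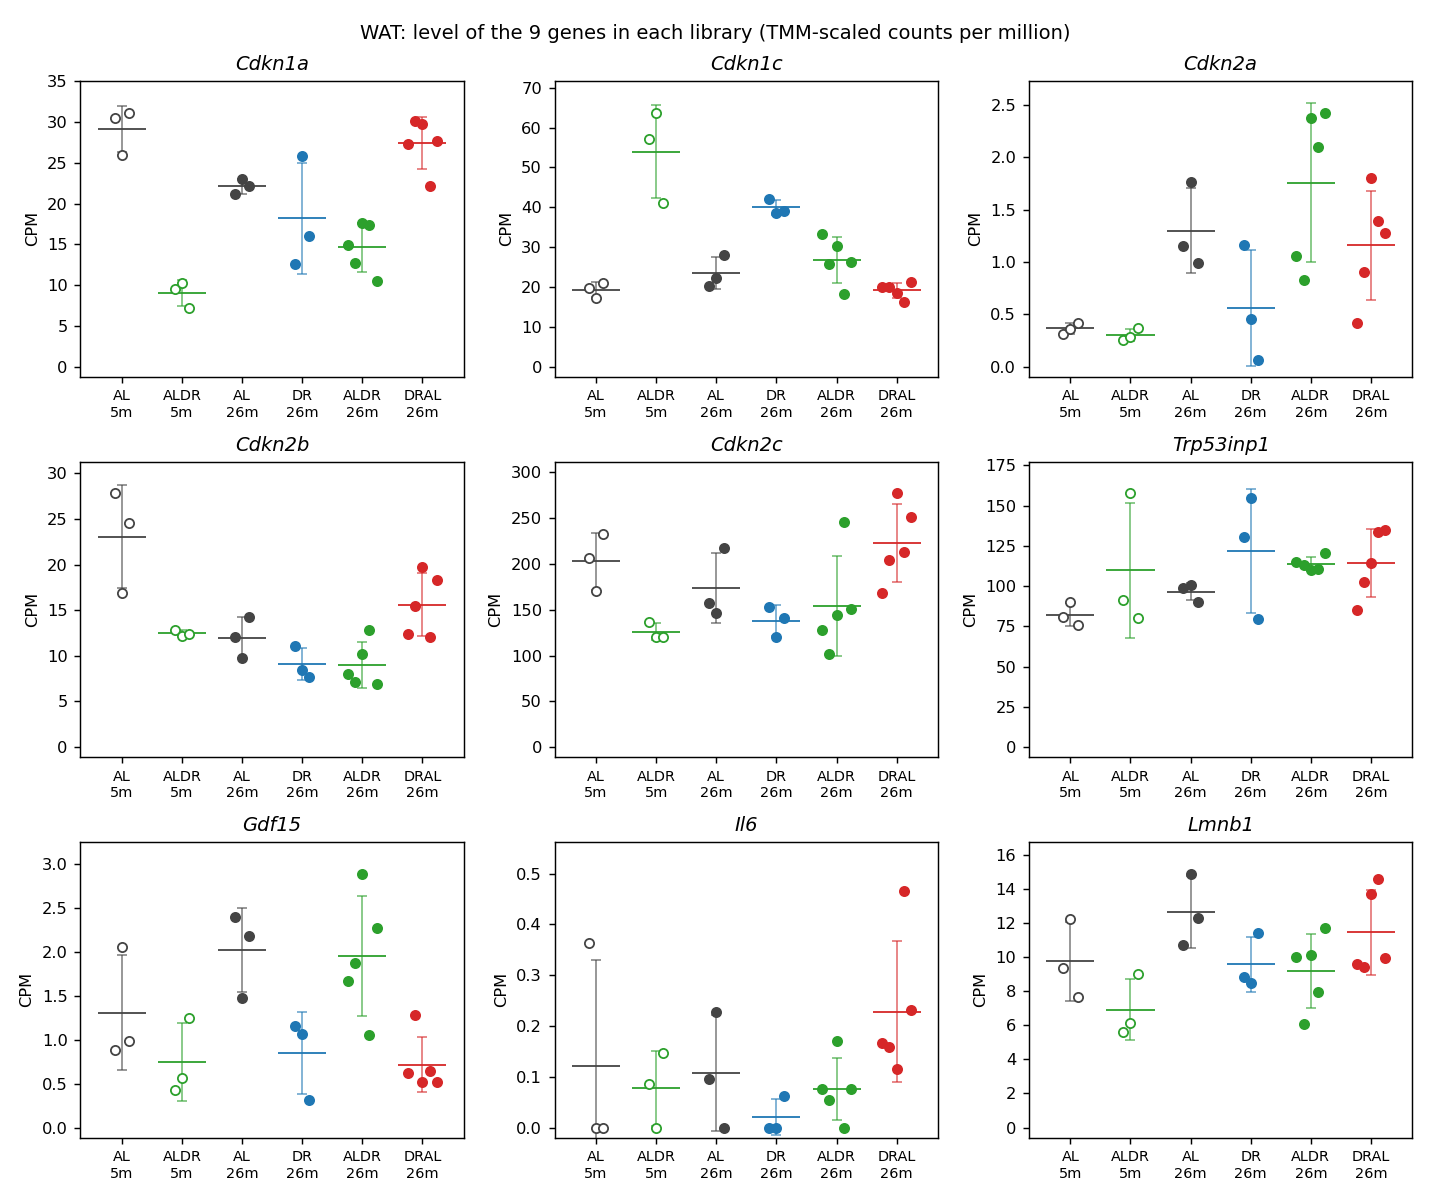
Level of each of the 9 genes in every WAT library, in CPM (vertical axis, from 0), by diet and age (horizontal axis). Each point is 1 library, open at 5 months and filled at 26 months; horizontal lines are group means and bars 1 SD (n = 3 or 5). At 5 months the ALDR points of Cdkn1a lie below and those of Cdkn1c above all AL points.

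The 9 genes were tested with edgeR's quasi-likelihood test in 19 comparisons, and a difference was called at a Benjamini-Hochberg (BH) adjusted p under 0.05 over all genes tested in the tissue. Of 141 tests of single members, 18 were called: 15 in WAT, 2 in BAT and 1 in liver. In WAT at 5 months, ALDR against AL gave 4 calls among 8 tested genes, 3 lower and 1 higher, where 29.2% of all tested genes were called. At 26 months, DR against AL gave 1 call (26.0% of all genes), DRAL against DR gave 4 (30.5%), ALDR against DR 1 (12.8%) and ALDR against DRAL 4 (12.3%). ALDR against AL gave 0 calls (4.36% of all genes), with 2 members at an unadjusted p under 0.05 and 1 call by DESeq2. DRAL against AL gave 0 (2.17%), with 1 member at an unadjusted p under 0.05 and 1 call by DESeq2. Age in AL mice gave 0 (0.114%), with 2 members at an unadjusted p under 0.05 and 1 call by DESeq2. The difference between the responses to restriction at 26 and 5 months, an interaction term, was called for 1 member (1.34%). A single call among 8 members is near or under the background in DR against AL and in ALDR against DR.

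In BAT, 7 members could be tested. ALDR against AL at 5 months gave 1 call, where 14.4% of all genes were called, and DRAL against DR at 26 months gave 1 (8.40%). The edgeR counts were 0 for DR against AL (11.5% of all genes; 3 members at an unadjusted p under 0.05, 1 call by DESeq2), ALDR against AL (1.30%; 0 and 0) and DRAL against AL (0% of all genes, with 656 at an unadjusted p under 0.05 and 6 called by DESeq2; 1 and 0 members). They were also 0 for ALDR against DR (5.21%; 1 and 0 members), ALDR against DRAL (2.02%; 2 and 1), age in AL mice (0.0795%; 2 and 0) and the interaction (0.0144%; 0 and 0). Liver ALDR against DRAL gave 1 call among 6 tested members, where 23.8% of all genes were called. The single calls in BAT ALDR against AL at 5 months and in liver are also near or under these shares. The median absolute log2 fold change of the members was 0.744 in WAT at 5 months and 0.338 over all genes tested. Over the 9 comparisons of WAT, the interaction included, it ran from 0.235 to 0.744 and that of all genes from 0.185 to 0.338. The 2 medians were close in WAT ALDR against DR (0.235 and 0.233), and in BAT in ALDR against AL at 26 months (0.147 and 0.167), ALDR against DR (0.195 and 0.184) and ALDR against DRAL (0.177 and 0.169). The comparisons share groups, so their calls are not independent.

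**Figure D2:**
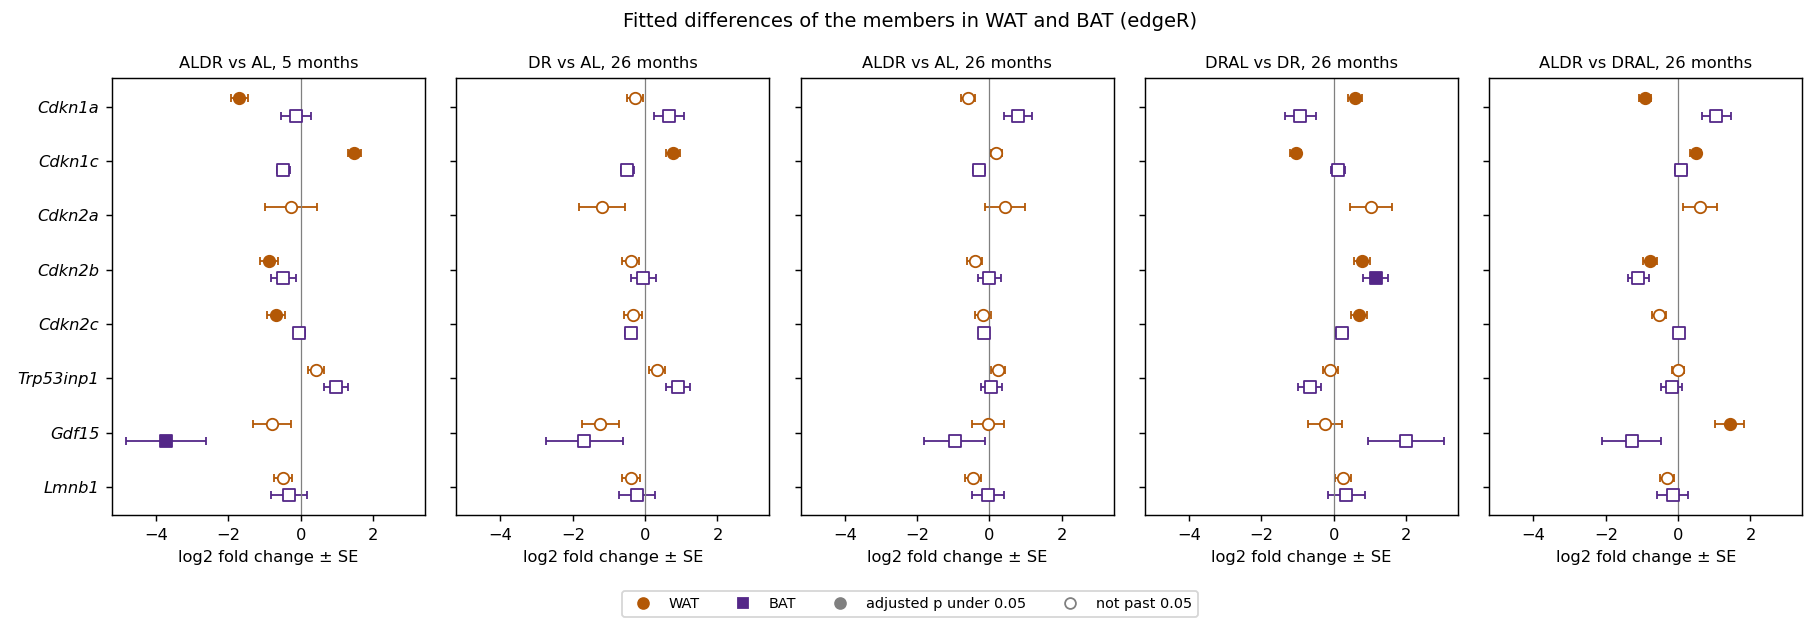
Fitted log2 fold changes with SE (horizontal axis, first group over second) of the members (vertical axis) in 5 comparisons, circles for WAT and squares for BAT; filled symbols passed an adjusted p of 0.05, Il6 was not tested, and Cdkn2a was not tested in BAT. The largest called values in WAT are those of Cdkn1a (-1.70) and Cdkn1c (1.48) at 5 months.

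Cdkn1a, which encodes p21 and is the best known p53 target among these inhibitors, was lower in WAT of young restricted mice. The AL libraries at 5 months gave 30.5, 25.9 and 31.2 CPM and the ALDR libraries 9.53, 10.3 and 7.21 CPM. No ALDR library came near an AL library, and the fitted difference was -1.70 ± 0.22 on the log2 scale (SE, edgeR adjusted p = 3.66e-05), a 3.24-fold lower level. At 26 months the AL libraries gave 21.2, 23.1 and 22.2 CPM, DR 12.6, 25.9 and 16.1 CPM, ALDR 15.0, 12.7, 17.6, 17.4 and 10.5 CPM, and DRAL 27.3, 30.1, 29.8, 22.2 and 27.7 CPM. All 5 ALDR libraries lay below all AL and all DRAL libraries. ALDR against DRAL, groups in which the fibroblast markers differed as given above, was called at -0.90 ± 0.17 (SE, edgeR adjusted p = 0.00297), and this call and that at 5 months held in all 17 and all 13 alternatives run. ALDR against AL missed the threshold at -0.60 ± 0.19 (SE, edgeR adjusted p = 0.0822). The DR libraries spread over the AL range, and DR against AL was -0.28 ± 0.21 (SE, edgeR adjusted p = 0.355). Without DR replicate 2, a muscle-rich library with the highest DR level, that difference became -0.63 with an edgeR adjusted p of 0.0355. No other of the 13 alternatives passed the threshold. The value was -0.08 and -0.20 without DR replicate 1 or 3 (adjusted p = 0.821 and 0.617). With muscle and hepatocyte marker scores as covariates it was -0.10 (adjusted p = 0.863). Without the muscle-rich libraries, which leaves DR replicate 1 alone in its group, it was -0.84.

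Cdkn1a in WAT was also called higher in DRAL than in DR, by 0.59 ± 0.20 (SE, edgeR adjusted p = 0.0282), with DR replicate 2 inside the DRAL range. Without DR replicate 2 the value was 0.94 (adjusted p = 0.00271), and without all muscle-rich libraries it was 1.15, a fit in which DR replicate 1 alone stands for DR and is assumed to vary like the other libraries. The call was lost without other libraries: the adjusted p was 0.148 and 0.122 without DR replicate 1 or 3 and 0.0552 and 0.0533 without DRAL replicate 2 or 3. Without DR replicate 1 the value was 0.39, with muscle and hepatocyte marker scores as covariates it was 0.31 (adjusted p = 0.622), and the adjusted p was 0.0722 with only those groups in the fit. The response at 26 months minus that at 5 months was 1.10 ± 0.30 (SE, edgeR adjusted p = 0.0642). Without ALDR replicate 5 at 26 months its adjusted p was 0.0352. It passed in 3 of 21 alternatives, and the highest adjusted p among them all was 0.138. The upstream stretch with the p53 half-sites is given above, and the part of p53 in these levels was not tested. Trp53, which encodes p53, was called in 2 of 8 WAT comparisons, and Cdkn1a was called in neither of these. Trp53 fell in DR against AL by 0.49 on the log2 scale (SE 0.15, edgeR adjusted p = 0.0189). Trp53 also fell in ALDR against AL, by 0.47 (SE 0.13, edgeR adjusted p = 0.0467), while Mdm2, the p53 target that degrades p53, fell in ALDR at 5 months by 0.30 (SE 0.10, edgeR adjusted p = 0.0297). At 26 months Mdm2 was higher in DRAL than in DR by 0.33 ± 0.09 (SE, edgeR adjusted p = 0.00868) and higher in ALDR than in DR by 0.28 ± 0.09 (SE, edgeR adjusted p = 0.0487).

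In BAT, Cdkn1a levels were 106, 157 and 190 CPM in AL and 138, 135 and 139 CPM in ALDR at 5 months, with no separation of the groups (-0.14 ± 0.42, SE, edgeR adjusted p = 0.868). At 26 months AL gave 84.3, 53.1 and 62.2 CPM, DR 99.1, 114 and 102 CPM, ALDR 22.8, 136, 115, 180 and 117 CPM, and DRAL 49.2, 66.7 and 49.1 CPM. Every DR library lay above every AL and DRAL library, as did 4 of 5 ALDR libraries. ALDR replicate 1, at 22.8 CPM, was the lowest BAT library of all. No comparison was called: ALDR against DRAL was 1.06 ± 0.39 (SE, edgeR adjusted p = 0.183) and DRAL against DR was -0.93 ± 0.43 (SE, edgeR adjusted p = 0.192). Without ALDR replicate 1, ALDR against DRAL became 1.32 with an edgeR adjusted p of 0.00162. ALDR against AL became 1.04 there, with an adjusted p of 0.00844. With only the groups compared in the fit, DR against AL (0.65) and DRAL against DR (-0.91) had adjusted p values of 0.0390 and 0.00784. For each of these comparisons, no other of the 14 or 16 alternatives passed the threshold. With a replicate block, ALDR against DRAL and ALDR against AL were 0.65 and 0.33 (adjusted p = 0.489 and 0.763). Without ALDR replicate 4 they were 0.83 and 0.56 (0.302 and 0.506). With muscle and epithelial marker scores as covariates they were 0.92 and 0.60 (0.508 and 0.732). The AL libraries at 26 months all lay below those at 5 months, by -1.19 ± 0.43 (SE, edgeR adjusted p = 0.357). The difference between WAT and BAT was not tested, since the libraries are of different kinds.

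**Figure D3:**
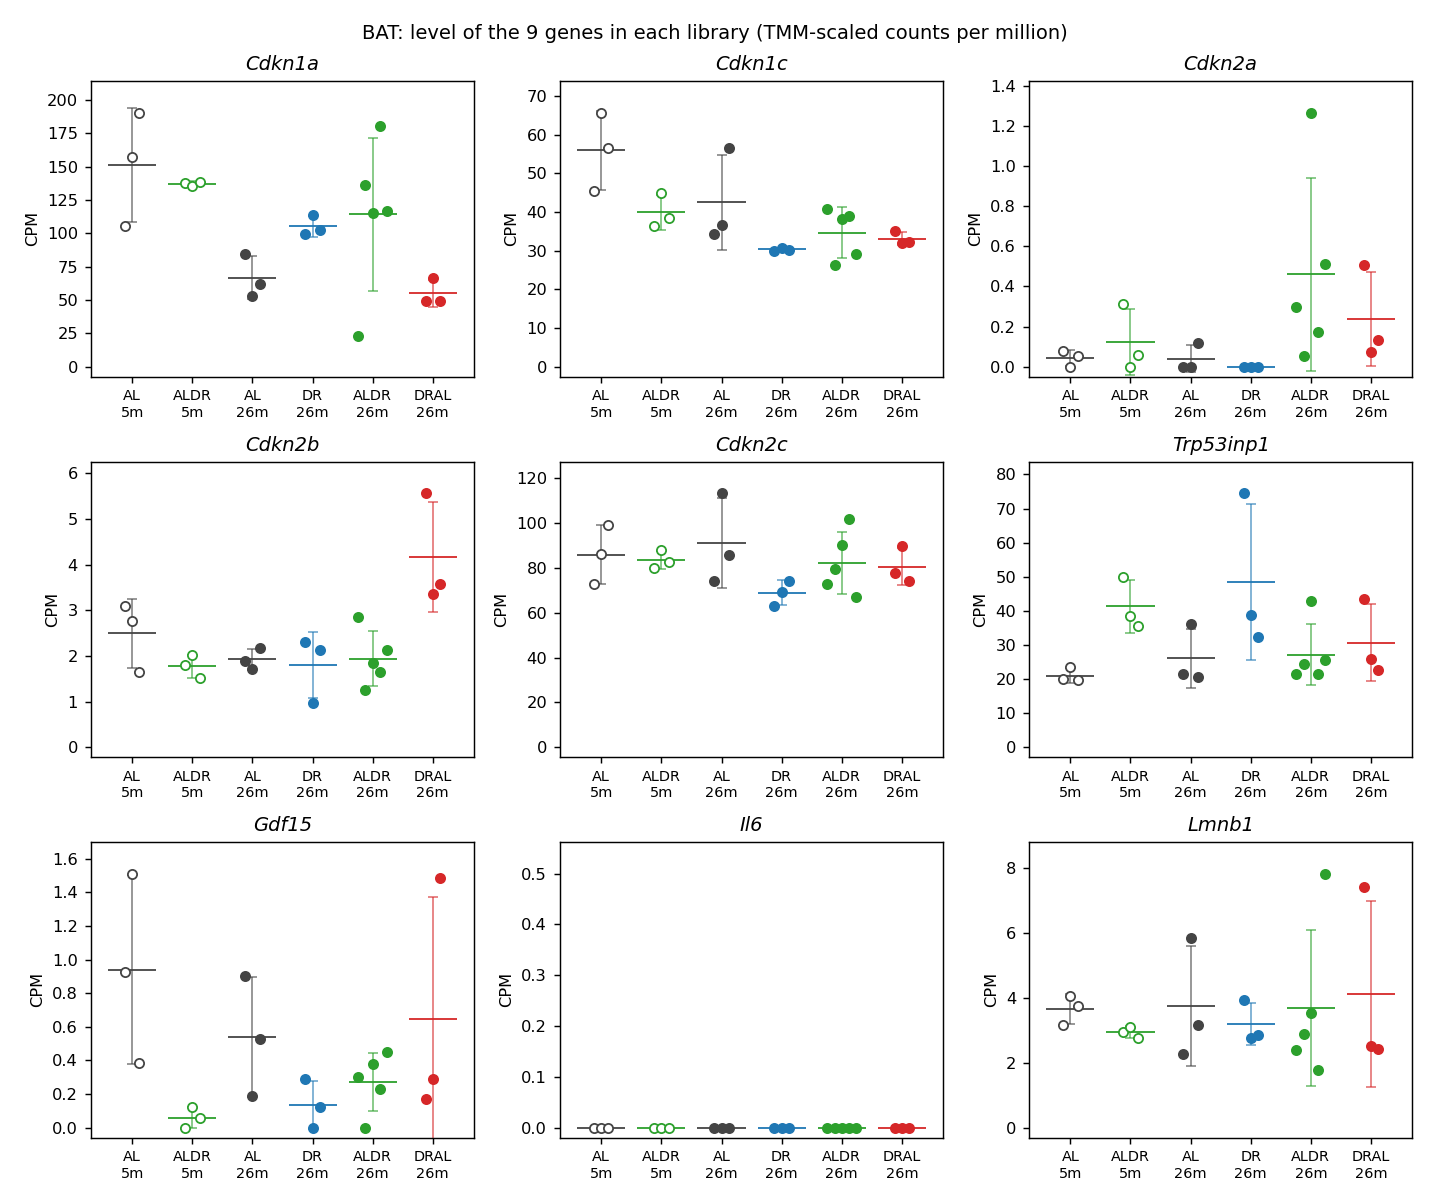
Level of each of the 9 genes in every BAT library, in CPM (vertical axis, from 0), by diet and age (horizontal axis). Points are libraries, open at 5 months and filled at 26 months, lines means and bars 1 SD (n = 3 or 5). The ALDR point of Cdkn1a at 22.8 CPM stands below the other 4, which lie from 115 to 180 CPM, and Il6 is at 0 throughout.

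Cdkn1c, the imprinted gene of p57, moved the other way from Cdkn1a in WAT. At 5 months the AL libraries gave 19.7, 17.3 and 21.1 CPM and the ALDR libraries 57.1, 63.7 and 41.0 CPM. All ALDR libraries were above all AL libraries, a difference of 1.48 ± 0.19 (SE, edgeR adjusted p = 2.32e-05) or 2.79-fold, which was called in all 13 alternatives. At 26 months AL gave 20.2, 22.2 and 27.9 CPM and DR 42.2, 38.6 and 39.1 CPM, again without overlap. Cdkn1c rose by 0.77 ± 0.18 in DR (SE, edgeR adjusted p = 0.0044). Without the muscle-rich libraries, which leaves DR replicate 1 alone in its group and assumes that it varies like the other libraries, the value was 0.82 with an adjusted p of 0.0690. The ALDR libraries gave 33.4, 25.7, 30.3, 18.3 and 26.4 CPM and the DRAL libraries 20.0, 20.0, 18.5, 16.2 and 21.2 CPM. All 5 of each group lay below the DR range, and DRAL against DR was -1.06 ± 0.16 (SE, edgeR adjusted p = 0.000135), called in all 15 alternatives.

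ALDR at 26 months stood between DR and DRAL in Cdkn1c. It fell against DR by 0.58 (SE 0.16, edgeR adjusted p = 0.0240). The adjusted p of this call was 0.0594, 0.0609 and 0.0713 without DR replicate 1, 2 or 3, 0.0660 with the marker covariates and 0.308 without the muscle-rich libraries. ALDR was higher than DRAL by 0.48 ± 0.14 (SE, edgeR adjusted p = 0.0341). Without any 1 of ALDR replicates 1, 2, 3 and 5 or DRAL replicates 1, 2, 3 and 4, the adjusted p of that comparison lay between 0.0508 and 0.0912. It was 0.0603 with only those groups in the fit, 0.0833 with the marker covariates and 0.0804 without the muscle-rich libraries. ALDR against AL was 0.19 ± 0.16 (SE, edgeR adjusted p = 0.566), with overlapping libraries. The response to restriction was smaller at 26 than at 5 months by 1.29 on the log2 scale (interaction -1.29 ± 0.24, SE, edgeR adjusted p = 0.0192). Its adjusted p was 0.0880 without ALDR replicate 2 at 5 months, 0.0601 without AL replicate 3 at 26 months and 0.0625 with only those groups in the fit. The 6 hepatocyte markers moved with the same groups: they summed to 2015 to 3840 CPM in ALDR and 329 to 1840 in AL at 5 months, and to 2014 to 2935 in DR, 303 to 3109 in ALDR, 419 to 800 in DRAL and 218 to 2050 in AL at 26 months. At most 3 of them were at 0 in a library. With hepatocyte and muscle marker scores as covariates, the calls of Cdkn1c for DR against AL, DRAL against DR, ALDR at 5 months and the interaction held, and those for ALDR against DR and ALDR against DRAL were lost, although their values of -0.69 and 0.54 were no smaller than without the covariates.

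In BAT, Cdkn1c levels were 45.4, 65.7 and 56.7 CPM in AL and 36.4, 45.0 and 38.5 CPM in ALDR at 5 months. At 26 months they were 34.3, 36.7 and 56.6 CPM in AL and 30.0, 30.8 and 30.3 CPM in DR. The restricted libraries lay below the AL libraries at both ages, but neither difference was called (-0.48 ± 0.18, edgeR adjusted p = 0.0861, and -0.49 ± 0.19, edgeR adjusted p = 0.102, with SE). With only the groups compared, that at 5 months was called (-0.47, adjusted p = 0.0479), the only 1 of 14 alternatives past the threshold. The ALDR libraries at 26 months (26.4 to 40.8 CPM) and DRAL libraries (32.0 to 35.0 CPM) overlapped. In liver Cdkn1c was 6.75 to 7.75 CPM in ALDR and 6.36 to 10.1 CPM in DRAL, with a difference of -0.13 ± 0.19 (SE, edgeR adjusted p = 0.663). Cdkn1b, the p27 gene of the same family, rose in ALDR at 5 months in WAT by 0.52 ± 0.16 (SE, edgeR adjusted p = 0.0173) and in BAT by 0.38 ± 0.10 (SE, edgeR adjusted p = 0.0202). It was also called in WAT for DRAL against DR (-0.39, adjusted p = 0.0381) and ALDR against DRAL (0.42, adjusted p = 0.0300).

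Cdkn2b, the gene of p15, is a target of TGF-beta signalling and lies next to Cdkn2a. In WAT at 5 months it was at 27.8, 16.9 and 24.6 CPM in AL and at 12.9, 12.2 and 12.4 CPM in ALDR. The groups did not overlap, and it fell by 0.89 (SE 0.25, edgeR adjusted p = 0.0109) in ALDR, with an adjusted p of 0.0588 without AL replicate 1. At 26 months AL gave 12.0, 9.77 and 14.2 CPM, DR 11.1, 8.50 and 7.66 CPM, ALDR 8.02, 7.13, 10.2, 12.9 and 6.90 CPM, and DRAL 12.4, 15.5, 19.8, 12.0 and 18.3 CPM. Every DRAL library was above every DR library, and Cdkn2b was called higher in DRAL than in DR by 0.78 ± 0.23 (SE, edgeR adjusted p = 0.0140). This call was lost without DR replicate 2 (adjusted p = 0.0628) or 3 (0.0748) and with the marker covariates (0.727), where the value was 0.22. Without the muscle-rich libraries, which leaves 1 DR library, the adjusted p was 0.420. ALDR was lower than DRAL by -0.79 ± 0.19 (SE, edgeR adjusted p = 0.0147), called in 16 of 17 alternatives, the exception being the marker covariates (0.139).

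All 3 old AL libraries of WAT lay below all 3 young ones in Cdkn2b, with a difference of -0.94 ± 0.24 (SE, edgeR adjusted p = 0.0720). The adjusted p was 0.0215 without AL replicate 2 at 5 months and 0.0128 with DESeq2. These were the only 2 of 13 alternatives past the threshold, and the highest adjusted p was 0.336, without AL replicate 3 at 5 months. In BAT, Cdkn2b was scarce, at 0.978 to 3.09 CPM in AL, ALDR and DR libraries of either age, and at 5.57, 3.37 and 3.57 CPM in DRAL. The 3 DRAL libraries lay above all 17 others. DRAL against DR was called at 1.16 ± 0.34 (SE, edgeR adjusted p = 0.0446), a result near the threshold that was lost when any 1 of the 6 libraries was left out (adjusted p from 0.0587 to 0.179), without the low-count filter (0.0612), without the muscle-rich libraries (0.112), with only the groups compared (0.0837) and with the marker covariates (0.196). DRAL against AL was 1.10 ± 0.34 (SE, edgeR adjusted p = 0.877, unadjusted p = 0.00443). ALDR against DRAL was -1.10 ± 0.29 (SE, edgeR adjusted p = 0.0611), and its adjusted p was 0.0182 without ALDR replicate 1. It passed in 2 of 16 alternatives, and the highest adjusted p was 0.320, without DRAL replicate 1. In liver Cdkn2b was 0.611 to 0.876 CPM in ALDR and 0.847 to 1.502 CPM in DRAL (-0.75 ± 0.36, SE, edgeR adjusted p = 0.162).

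Cdkn2c, the gene of p18, had the highest level of the 5 inhibitors in WAT. AL libraries at 5 months gave 207, 171 and 233 CPM and ALDR libraries 137, 121 and 121 CPM. The groups did not overlap, and Cdkn2c fell by 0.69 (SE 0.25, edgeR adjusted p = 0.0409) in ALDR. That call was lost without AL replicate 1 (adjusted p = 0.0882) or 3 (0.123) and without ALDR replicate 1 (0.0666), 2 (0.116) or 3 (0.101). At 26 months AL gave 157, 147 and 218 CPM, DR 153, 121 and 141 CPM, ALDR 128, 101, 144, 246 and 150 CPM, and DRAL 168, 204, 277, 213 and 252 CPM. DRAL lay above DR without overlap, by 0.69 ± 0.22 (SE, edgeR adjusted p = 0.0258). The adjusted p was 0.117 and 0.0697 without DR replicate 2 or 3, 0.0596 without DRAL replicate 3, 0.343 without the muscle-rich libraries (1 DR library left) and 0.784 with the marker covariates, where the value was 0.19. ALDR against DRAL was -0.53 ± 0.19 (SE, edgeR adjusted p = 0.0708). Without ALDR replicate 4, the one ALDR library at 246 CPM, it was -0.77 with an adjusted p of 0.00328. With DESeq2 its adjusted p was 0.0388. It passed in 3 of 17 alternatives, and with the marker covariates it was -0.31 (adjusted p = 0.403).

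In BAT, Cdkn2c varied little, from 63.1 to 113 CPM over the 20 libraries, and no comparison was called. DR libraries (63.1, 69.4 and 74.4 CPM) were lower than AL libraries (74.2, 113 and 85.8 CPM) at 26 months by -0.40 ± 0.16 (SE, edgeR adjusted p = 0.114). Only 1 of 14 alternatives passed the threshold, the replicate block (-0.39, adjusted p = 0.0378). In liver it was 10.8 to 16.5 CPM in ALDR and 8.95 to 13.3 CPM in DRAL (0.28 ± 0.20, SE, edgeR adjusted p = 0.348). Cdkn2d, the remaining INK4 gene, was called in none of 8 comparisons in WAT, 8 in BAT and 1 in liver, with smallest adjusted p values of 0.590, 0.627 and 0.425.

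Cdkn2a, whose p16 product is the most used marker of senescent cells, was scarce in WAT. At 5 months the 3 AL libraries gave 0.311, 0.363 and 0.421 CPM and the ALDR libraries 0.255, 0.280 and 0.368 CPM. At 26 months AL gave 1.15, 1.76 and 0.987 CPM, DR 1.16, 0.458 and 0.0618 CPM, ALDR 1.06, 0.823, 2.38, 2.10 and 2.43 CPM, and DRAL 0.416, 0.904, 1.80, 1.395 and 1.28 CPM. All 3 old AL libraries lay above all young ones, by 1.82 ± 0.66 (SE), which did not pass after adjustment (unadjusted p = 0.0123, edgeR adjusted p = 0.150). DR replicate 3 had 1 count, the fewest of all WAT libraries. ALDR against DR was 1.63 ± 0.59 (SE, edgeR adjusted p = 0.0732), DRAL against DR 1.03 ± 0.58 (SE, edgeR adjusted p = 0.189) and DR against AL -1.20 ± 0.63 (SE, edgeR adjusted p = 0.172). Without DR replicate 1, the DR library with the highest level, the adjusted p values of these comparisons were 0.0139, 0.0237 and 0.0226. That fit leaves DR replicates 2 and 3, both muscle-rich. With muscle and hepatocyte marker scores as covariates, the values were 1.26, 0.14 and -0.74 (adjusted p = 0.261, 0.938 and 0.508). Without the muscle-rich libraries, which leaves DR replicate 1 alone in its group, they were 0.79, 0.01 and -0.19. The adjusted p of ALDR against DR was 0.0404 without ALDR replicate 2. B cell and T cell markers were also lower in young WAT: 4 B cell markers summed to 8.07 to 14.7 CPM in AL at 5 months and 54.7 to 144 CPM at 26 months, and 5 T cell markers to 7.26 to 17.7 and 23.5 to 59.9 CPM, and their part in the result was not tested.

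In BAT, Cdkn2a had 0 counts in all 3 DR libraries and at least 1 count in all 5 ALDR libraries (0.2999, 0.0523, 1.27, 0.171 and 0.514 CPM) and all 3 DRAL libraries (0.506, 0.0716 and 0.135 CPM). Summed over the group, ALDR had 36 counts, or 0.442 CPM. Taken against the 3 counts that a count of 0 allows over the DR group (0.0822 CPM), the ratio of ALDR to DR was 5.37. This ratio does not cover the counting error of ALDR or the spread between mice. ALDR replicate 2, at 0.0523 CPM, lay below that DR limit. AL at 26 months had 2 counts in all, and the ratio of ALDR to AL was 9.69 with an exact 95% interval from 2.49 to 83, which covers counting error only. Of the 36 ALDR counts, 20 came from replicate 3, in which muscle markers were high, and 8 from replicate 5, in which epithelial markers were high. Without ALDR replicate 3, the ratio of ALDR to the DR limit was 2.96, and its ratio to AL was 5.34. Without DR replicate 1 or 3 the ratio to the DR limit was 3.32 or 2.96. Without AL replicate 2 the ratio to AL was 6.2, and without AL replicate 3 it was 3.95, taken against 3 counts. In liver, the 6 libraries held 64 counts in all, with 0.329 to 1.08 CPM in ALDR and 0.477 to 0.515 CPM in DRAL.

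Trp53inp1, a p53 target that takes part in autophagy and in cell death under stress, was the only member called in liver by edgeR. The ALDR libraries gave 216, 221 and 278 CPM and the DRAL libraries 126, 143 and 117 CPM. The groups did not overlap, and Trp53inp1 was higher in ALDR by 0.89 ± 0.13 (SE, edgeR adjusted p = 0.00146) or 1.85-fold. Hepatocyte markers were higher in ALDR and epithelial markers lower (196 to 274 CPM against 458 to 518 CPM in DRAL), in both cases without overlap, and their part in the result was not tested. Trp53inp1 was called in all 11 alternatives, among them a term for the presence of Y-linked counts (0.89, adjusted p = 0.000796). Leaving out any 1 library gave 0.76 to 0.97. In BAT at 5 months, ALDR gave 50.0, 38.4 and 35.5 CPM and AL 19.9, 23.5 and 19.7 CPM. The groups did not overlap, and the difference of 0.97 ± 0.33 (SE, edgeR adjusted p = 0.0563) missed the threshold. Trp53inp1 was called there with DESeq2 (adjusted p = 0.0216), with only the groups compared (0.00404) and with the marker covariates (0.0306), and the adjusted p ran from 0.0804 to 0.191 when 1 library was left out. At 26 months BAT DR gave 74.5, 38.6 and 32.3 CPM, AL 21.4, 35.98 and 20.7 CPM, ALDR 21.4, 24.4, 42.8, 21.3 and 25.4 CPM, and DRAL 43.5, 25.8 and 22.7 CPM. DR against AL was 0.90 ± 0.33 (SE, edgeR adjusted p = 0.0857), with 1.21 (adjusted p = 0.0398) without AL replicate 2 and 0.44 (0.443) without DR replicate 1, the library at 74.5 CPM. DESeq2 gave an adjusted p of 0.0489. ALDR against DR was -0.85 ± 0.29 (SE, edgeR adjusted p = 0.0945), with -1.06 (adjusted p = 0.0348) without ALDR replicate 3 and -0.38 (0.568) without DR replicate 1. Without the 3 muscle-rich libraries, these adjusted p values were 0.0447 and 0.0325.

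In WAT, Trp53inp1 was called in none of 9 comparisons by edgeR, with 0 at an unadjusted p under 0.05. Its group means ran from 82.3 CPM in AL at 5 months to 122 CPM in DR, and the ranges of neighbouring groups overlapped except between AL at 26 and 5 months. All 5 ALDR libraries at 26 months (110 to 121 CPM) lay above all 3 AL libraries (90.4 to 101 CPM), a difference of 0.24 ± 0.20 (SE, edgeR adjusted p = 0.569). Its paralogue Trp53inp2, which acts in autophagy, was called in 3 WAT comparisons. It fell by 1.34 in ALDR at 5 months (SE 0.29, edgeR adjusted p = 0.00222) and by 0.83 in DR against AL (SE 0.29, edgeR adjusted p = 0.0407), and was higher in DRAL than in DR by 1.07 ± 0.27 (SE, edgeR adjusted p = 0.00576).

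**Figure D4:**
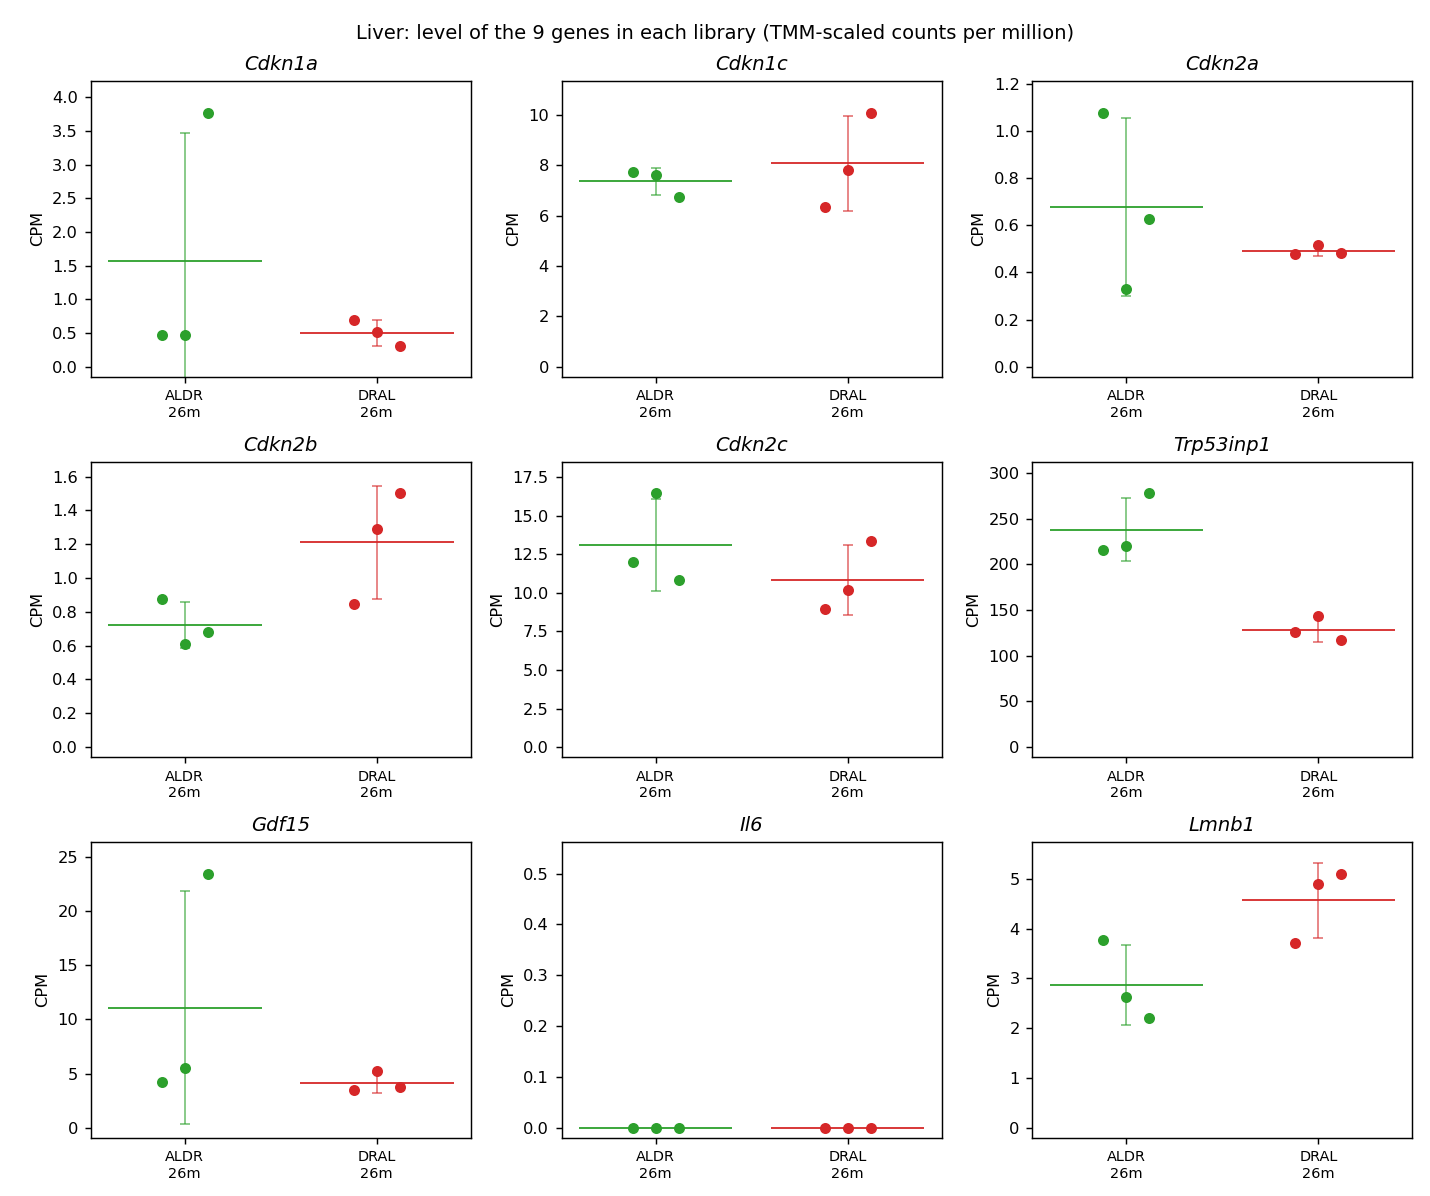
Level of each of the 9 genes in every liver library, in CPM (vertical axis, from 0), for ALDR and DRAL mice at 26 months (horizontal axis). Points are libraries, lines means and bars 1 SD (n = 3). Trp53inp1 separates the groups, while ALDR replicate 3 alone is high in Cdkn1a (3.77 CPM) and Gdf15 (23.5 CPM).

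Gdf15, which signals to the brainstem through its receptor GFRAL, was low in fat. In WAT at 26 months the ALDR libraries gave 1.66, 1.87, 2.89, 1.05 and 2.27 CPM and the DRAL libraries 0.624, 1.28, 0.522, 0.640 and 0.522 CPM. Only 1 DRAL library reached the ALDR range, and Gdf15 was higher in ALDR by 1.43 ± 0.40 (SE, edgeR adjusted p = 0.0268). This call was lost with the marker covariates (adjusted p = 0.0836) and without any 1 of ALDR replicates 3 and 5 and DRAL replicates 1, 3, 4 and 5 (adjusted p from 0.0544 to 0.0701), while the value stayed between 1.25 and 1.74 over all alternatives. AL at 26 months gave 2.40, 1.48 and 2.18 CPM, above all DRAL libraries (-1.48 ± 0.44, SE, edgeR adjusted p = 0.0799) and above all DR libraries, which gave 1.16, 1.07 and 0.309 CPM (-1.24 ± 0.51, SE, edgeR adjusted p = 0.0793). DRAL against AL was -1.79 with an adjusted p of 0.0442 without DRAL replicate 2. It passed in 2 of 15 alternatives, and the highest adjusted p among them all was 0.197. At 5 months AL gave 0.881, 2.06 and 0.982 CPM and ALDR 0.426, 0.559 and 1.25 CPM, with overlap (-0.80 ± 0.52, SE, edgeR adjusted p = 0.271).

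In BAT, Gdf15 passed the low-count filter but was near the floor. The part of the brown adipocyte, hepatocyte and mesothelial markers in the results on BAT ALDR at 5 months and DR was not tested. The marker covariates in BAT were scores of muscle and epithelial markers. At 5 months AL libraries gave 0.927, 1.51 and 0.382 CPM, and ALDR libraries had 3 counts in all, at 0, 0.122 and 0.0562 CPM. The fit called Gdf15 lower in ALDR (edgeR adjusted p = 0.0321), and the ratio of the summed levels, 0.0638 to 0.903 CPM, was 0.0707 with an exact 95% interval from 0.014 to 0.221 for counting error, and 0.0361 without ALDR replicate 2. The call was lost without AL replicate 1 (adjusted p = 0.0698) or 2 (0.121), without ALDR replicate 1 (0.121), 2 (0.0594) or 3 (0.108), and without the 3 muscle-rich BAT libraries (0.155), of which AL replicate 2 is the one in this comparison. With only the groups compared, Gdf15 did not pass the low-count filter and was not tested. With the marker covariates its call held (edgeR adjusted p = 0.0349). In liver, ALDR gave 4.24, 5.55 and 23.5 CPM and DRAL 3.44, 5.19 and 3.79 CPM. The difference of 1.42 ± 0.55 (SE, edgeR adjusted p = 0.0887) became 0.24 without ALDR replicate 3. Its adjusted p was 0.0390 without ALDR replicate 1 and 0.0476 without the low-count filter. The same library had 3.77 CPM of Cdkn1a, against 0.3004 to 0.688 CPM in the other 5.

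Il6, a cytokine released by macrophages, fibroblasts and senescent cells, could not be tested in any tissue. In WAT its highest level was 0.465 CPM, or 8 counts, in DRAL replicate 4. All 5 DRAL libraries had counts (0.166, 0.160, 0.116, 0.465 and 0.232 CPM), while DR had 1 count over its 3 libraries. The ratio of the summed levels of DRAL to DR was 11.8 with an exact 95% interval from 1.9 to 488, and that of DRAL to ALDR was 2.87 with an interval from 1.12 to 8.69, for counting error only. The first ratio was 7.43 without DR replicate 2. Without DR replicate 3 it was 2.73, taken against the 3 counts that a count of 0 allows. The second ratio was 4.43 without ALDR replicate 3. At this depth no difference between old and young AL mice was detectable (6 and 7 counts). The signal transducer Il6st, by contrast, stood at 442 CPM in WAT of old AL mice and was called in none of the group comparisons of any tissue (smallest adjusted p = 0.0689, in BAT). The receptor Il6ra was lower in DRAL than in DR in WAT by -0.82 ± 0.18 (SE, edgeR adjusted p = 0.00277) and was higher in ALDR than in DRAL in liver by 2.16 ± 0.20 (SE, edgeR adjusted p = 0.000158), at 20.1 and 4.46 CPM.

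Lmnb1, the gene of lamin B1, was called by edgeR in none of 19 comparisons, with 2 at an unadjusted p under 0.05 (ALDR against AL at 26 months in WAT, and liver). In WAT AL gave 9.38, 12.2 and 7.65 CPM and ALDR 5.62, 6.15 and 8.98 CPM at 5 months (-0.49 ± 0.25, SE, edgeR adjusted p = 0.153). At 26 months AL gave 10.7, 14.9 and 12.3 CPM, DR 8.81, 8.45 and 11.4 CPM, ALDR 9.98, 6.09, 10.1, 7.95 and 11.7 CPM, and DRAL 9.57, 9.41, 13.7, 14.6 and 9.92 CPM. All pairs of diet groups overlapped in WAT. Old AL libraries did not lie below young ones (0.37 ± 0.25, SE, 95% interval -0.12 to 0.86, edgeR adjusted p = 0.419). In BAT, 17 of 20 libraries lay between 1.76 and 4.07 CPM, and the other 3 were ALDR replicate 5 (7.84 CPM), DRAL replicate 1 (7.42 CPM) and AL replicate 2 (5.84 CPM), each from another group at 26 months. These 3 were also the highest in the summed proliferation markers, at 40.3, 35.0 and 28.0 CPM against at most 12.5 CPM in the rest. Lmnb1 is known to be expressed more in dividing cells, and the markers' part in its level was not tested. In liver ALDR gave 3.77, 2.63 and 2.20 CPM and DRAL 3.71, 4.89 and 5.11 CPM (-0.68 ± 0.25, SE, edgeR adjusted p = 0.0737). The adjusted p was 0.0401 without ALDR replicate 1, the only 1 of 11 alternatives past the threshold, and it ranged up to 0.204. DRAL replicates 3 and 2, highest in Lmnb1, were also highest in the proliferation markers, at 37.7 and 15.0 CPM. The rest had 8.63 to 12.5 CPM, and the markers' part in liver was not tested either.

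**Figure D5:**
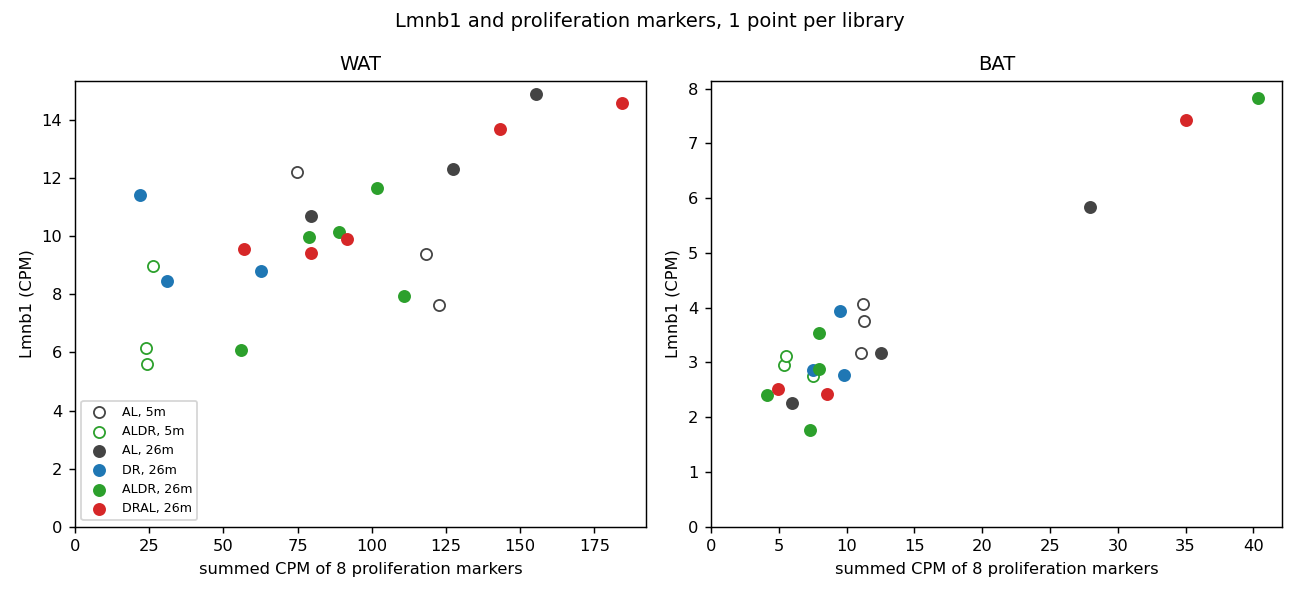
Level of Lmnb1 (vertical axis, CPM) against the summed level of 8 proliferation markers (horizontal axis, CPM) in WAT (left) and BAT (right), 1 point per library, open at 5 months and filled at 26 months. In BAT the 3 libraries above 5 CPM of Lmnb1 are those with 28.0 to 40.3 CPM of the markers.

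In liver, where Lmnb1 missed the threshold, Lmna fell by 0.60 in ALDR against DRAL (SE 0.10, edgeR adjusted p = 0.0034) and Lmnb2 by 0.75 (SE 0.18, edgeR adjusted p = 0.0143), with no overlap between groups. In WAT Lmna fell in ALDR at 5 months by 0.46 (SE 0.15, edgeR adjusted p = 0.0287), from 319 to 233 CPM, and Lmnb2 was called in none of 8 comparisons. Of 11 genes of the lamina and chromatin list, 3 were higher and 1 lower in WAT ALDR at 5 months (36.4%, beside 29.2% of all genes), among them Hmgb1 (0.56 ± 0.13, SE, edgeR adjusted p = 0.0040), a chromatin protein that senescent cells release, and Sun2 (0.45 ± 0.13, SE, edgeR adjusted p = 0.0139), which links the lamina to the cytoskeleton. Hmgb1 also rose in BAT, by 0.62 ± 0.10 in ALDR at 5 months (SE, edgeR adjusted p = 0.000914) and by 0.46 ± 0.10 in DR (SE, edgeR adjusted p = 0.00746). Sun2 rose by 1.13 ± 0.12 in liver ALDR (SE, edgeR adjusted p = 0.000297).

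Other genes of the senescent secretion, without Il6 and Gdf15, were mostly lower among those called in restricted WAT set against AL. Of 26 tested, 11 were lower and 1 higher in ALDR at 5 months, and 15 lower and 1 higher in DR against AL at 26 months. These are 46.2% and 61.5% of the list, beside 29.2% and 26.0% of all genes called. The medians over the list were -0.94 and -1.13 on the log2 scale, beside -0.01 and 0.00 over all genes tested. Ccl2, a chemokine for monocytes, fell from 28.1 to 1.09 CPM (-4.69 ± 0.55, SE, edgeR adjusted p = 1.29e-05) at 5 months, and Mmp12, a macrophage protease, fell from 256 to 2.60 CPM (-6.61 ± 0.89, SE, edgeR adjusted p = 4.32e-05). In DR against AL, Mmp12 fell from 267 to 1.67 CPM (-7.31 ± 0.92, SE, edgeR adjusted p = 2.42e-05) and Igfbp4, which binds insulin-like growth factors, from 804 to 455 CPM (-0.82 ± 0.10, SE, edgeR adjusted p = 1.3e-05). In ALDR against AL at 26 months 4 were lower and 1 higher (19.2%, beside 4.36% of all genes), with Igfbp5 at -1.10 ± 0.18 and Csf1, the macrophage growth factor, at -0.80 ± 0.16 (SE, edgeR adjusted p = 0.00333 and 0.0113). ALDR against DR gave 6 higher and 1 lower (26.9%, beside 12.8%), with a list median of 0.88, and ALDR against DRAL 2 higher and 4 lower (23.1%, beside 12.3%), with a median of -0.07. DRAL, the group returned to full feeding, had 4 lower and none higher than AL (15.4%, beside 2.17% of all genes), and DRAL against DR gave 9 higher and 1 lower (38.5%, beside 30.5%). In BAT 2 of 22 were lower in DR, a share under the 11.5% of all genes (Mmp9, from 3.51 to 0.864 CPM, and Ccl7, from 0.952 to 0.0986 CPM; edgeR adjusted p = 0.00361 and 0.0214). In liver 3 of 19 were higher and 1 lower in ALDR, 21.1% beside 23.8% of all genes, with Igfbp2 at 1.36 ± 0.20 (SE, edgeR adjusted p = 0.00135) and Gpnmb at 3.05 ± 0.48 (SE, edgeR adjusted p = 0.00196). Several of these genes are made by macrophages, whose markers were lower in restricted WAT as given above, and the part of those cells was not tested.

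Of 26 genes of p53 and its targets, none of them among the 9, 11 were lower and 3 higher in WAT ALDR at 5 months, and 9 lower and 2 higher in DR against AL. These are 53.8% and 42.3% of the list, beside 29.2% and 26.0% of all genes called. Plk2, a kinase of the stress response, fell in both (-1.32 ± 0.22 and -1.59 ± 0.23, SE, edgeR adjusted p = 0.000335 and 7.35e-05), while the DNA repair gene Xpc rose at 5 months (0.68 ± 0.09, SE, edgeR adjusted p = 5.17e-05) and Rrm2b, which supplies nucleotides for repair, rose in DR (0.42 ± 0.11, SE, edgeR adjusted p = 0.00666). In ALDR against AL at 26 months 2 were higher, Rrm2b (0.60, adjusted p = 0.00279) and Xpc (0.32, adjusted p = 0.0364), and 1 was lower (11.5%, beside 4.36% of all genes). DRAL against DR gave 9 higher and 2 lower (42.3%, beside 30.5%), with Plk2 at 1.38 ± 0.21 and Aen at 0.73 ± 0.14 (SE, edgeR adjusted p = 0.000135 and 0.00115). In BAT, Xpc rose in ALDR at 5 months (0.60, adjusted p = 0.00182), in DR (0.61, adjusted p = 0.00255) and in ALDR at 26 months against AL (0.41, adjusted p = 0.0443). In BAT at 5 months 4 of 25 targets were higher and 2 lower (24%, beside 14.4% of all genes), the former including the death receptor Fas (0.76 ± 0.16, SE, edgeR adjusted p = 0.00448). In BAT DR against AL 2 of 25 were higher and none lower, a share under the 11.5% of all genes called. Besides Xpc, this was Ddit4, an inhibitor of mTOR signalling (1.48 ± 0.44, SE, edgeR adjusted p = 0.0356). In liver 3 of 25 were higher and 3 lower in ALDR (24%, at the 23.8% of all genes), Plk3 at 1.43 ± 0.22 and the cell death gene Bbc3 at -1.72 ± 0.33 (SE, edgeR adjusted p = 0.00184 and 0.00512).

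Among 16 cyclins, kinases and RB/E2F genes that act downstream of the inhibitors, 4 were lower and none higher in WAT ALDR at 5 months, a share of 25% that is under the 29.2% of all genes called. Ccnd1, the gene of cyclin D1, fell by 1.19 (SE 0.24, edgeR adjusted p = 0.00134), and E2f2 was at -2.57 ± 0.46 (SE, edgeR adjusted p = 0.000466). In DR against AL 2 were higher and 2 lower (25%, beside 26.0% of all genes), with Ccnd1 at -1.04 ± 0.24 and Ccnd3 at 0.72 ± 0.16 (SE, edgeR adjusted p = 0.00346 and 0.00354). DRAL against DR gave 3 higher, among them Ccnd1 (1.17, adjusted p = 0.00082), and 3 lower, among them Ccnd3 (-0.53, adjusted p = 0.0103), 37.5% in all beside 30.5% of all genes. In BAT 4 were higher and 2 lower in ALDR at 5 months (37.5%, beside 14.4% of all genes), and 3 higher and 1 lower in DR (25%, beside 11.5%). E2f2 fell in BAT ALDR at 5 months (19.7 to 2.71 CPM, edgeR adjusted p = 0.000468), in DR (21.5 to 2.80 CPM, edgeR adjusted p = 0.000668) and in ALDR at 26 months (21.5 to 6.28 CPM, edgeR adjusted p = 0.0144), and Cdk2 rose in the first 2 of these (0.58 and 0.66, adjusted p = 0.0114 and 0.00746). In liver Ccnd1 fell in ALDR from 76.4 to 35.2 CPM (-1.12 ± 0.13, SE, edgeR adjusted p = 0.000369) and Ccne2 rose (1.74 ± 0.35, SE, edgeR adjusted p = 0.00619).

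The integrated stress response, which can induce Gdf15, was measured by a list without Gdf15. Of 15 genes in WAT, 5 were higher and 6 lower in ALDR at 5 months and 3 higher and 4 lower in DR, or 73.3% and 46.7% beside 29.2% and 26.0% of all genes called. Asns, which makes asparagine, rose by 1.34 ± 0.16 and 1.11 ± 0.16, and Chac1, which degrades glutathione, by 2.56 ± 0.35 and 2.88 ± 0.35 (SE, edgeR adjusted p from 1.69e-05 to 8.73e-05). Both also rose in ALDR at 26 months (Asns 0.61, Chac1 1.52, adjusted p = 0.0242 and 0.0127). In BAT 3 of 14 were lower in ALDR at 5 months (21.4%, beside 14.4% of all genes), among them Atf4, the transcription factor at the centre of this response (from 113 to 56.5 CPM, edgeR adjusted p = 0.000587), and Atf5 (-1.15 ± 0.31, SE, edgeR adjusted p = 0.0191), where Gdf15 was called lower as well. In liver 2 of 11 were higher in ALDR (18.2%, under the 23.8% of all genes), Fgf21, a hormone of fasting (1.99 ± 0.51, SE, edgeR adjusted p = 0.0184), and Eif4ebp1 (0.50, adjusted p = 0.0360). Of 10 genes of IL-6 signalling tested in WAT, 3 were lower and none higher at 5 months and 2 lower in DR, shares of 30% and 20% that are near or under the 29.2% and 26.0% of all genes, with the related cytokine Lif at -1.68 ± 0.37 and -2.19 ± 0.37 (SE, edgeR adjusted p = 0.00235 and 0.000362). Socs3, the feedback inhibitor of this pathway, fell by 0.81 in DR (SE 0.27, edgeR adjusted p = 0.0351).

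Genes with the profile most like each member were found by Pearson correlation of log2 CPM over the libraries of a tissue, which share depth, cell makeup and diet groups. Over 22 WAT libraries Cdkn1a was most like Sh3pxd2b (r = 0.904) and Rps6ka3 (0.877), Cdkn1c like Pdk1 (0.943) and Usp33 (0.937), Cdkn2b like Kpnb1 (0.941) and Rnf11 (0.927), and Cdkn2c like Fam241a (0.898) and Hfe (0.894). Cdkn2a was most like Ankle1 (0.883) and Clec4n (0.876), a receptor of myeloid cells, Gdf15 like Stab2 (0.847) and Slc2a9 (0.834), Trp53inp1 like Zfp706 (0.790) and Lmbrd1 (0.728), and Lmnb1 like Cit (0.832) and Fanca (0.831). Over 20 BAT libraries Lmnb1 was most like Top2a (0.898), a gene of dividing cells and itself among the proliferation markers, and Far1 (0.887). Cdkn1a in BAT was most like Adgrg1 (0.889) and Bcl2l1 (0.871), Cdkn1c like Ltbp4 (0.867) and Tspan9 (0.802), Cdkn2b like Dusp14 (0.798) and Mapkapk3 (0.778), and Cdkn2c like Ebf1 (0.768) and Acsbg1 (0.728). With Spearman's rank correlation in place of Pearson's, the pairs of Cdkn1a and Cdkn1c in WAT were replaced entirely, by Hdac9 and Heatr3 and by Acad10 and Hp1bp3. Over WAT and BAT, 8 of the members' other pairs kept only 1 of their 2 genes and 4 kept both, counting the pair not reported here.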

How the data were processed

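RNA-seq libraries of mouse WAT (22), BAT (20) and liver (6) were analysed. The authors deposited 1 table of read counts per gene for each tissue, as whole numbers that were not normalized. Per the labels' protocols, all libraries kept the strand. Reads were paired-end of 100 bp for WAT and liver and single-end of 150 bp for BAT, taken as polyA-enriched from the sample descriptions although the labels conflict. The submitters' processing notes name GRCm38, Trim Galore 0.3.7, TopHat2 2.0.14 and DESeq2, and the counting program and its strand setting are not given in the sources used here. Symbols came from GENCODE M21, which named 25012 of 25913 identifiers, and promoter sequences from RefSeq. Titles of BAT ALDR libraries write ADRL, and their descriptions give the switch to restriction.

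Each tissue was fitted with edgeR 4.0.16 in R 4.3.3 (TMM, filterByExpr, all groups in 1 quasi-likelihood fit), which left 15828 genes in WAT, 13845 in BAT and 12761 in liver, with BH adjustment over them. CPM used TMM-scaled library sizes, and 3 counts equalled 0.125 to 0.255 CPM in WAT, 0.157 to 0.489 in BAT and 0.129 to 0.202 in liver. The test was checked on simulated data. Alternatives were DESeq2 1.42.0, RLE factors, no low-count filter, only the groups compared, a replicate block and leaving out each library. Marker covariates, a term for Y-linked counts and leaving out muscle-rich or epithelium-rich libraries were added after seeing the data. Leaving out single libraries from ratios of summed counts was also added then. The marker covariates were scores of muscle and hepatocyte markers in WAT and of muscle and epithelial markers in BAT. The members, the gene lists and the markers were chosen with earlier results of these data known. All members are named, with up to 2 genes per list, those with the smallest p among called genes whose libraries did not overlap, a set of partner genes and the 2 most alike genes per member, of which those of Trp53inp1 in BAT are not reported here. Libraries were separate biological replicates per the labels, and no 2 of a group had counts that agreed within sampling noise (chi-square per degree of freedom at least 8.163).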

Additional observations from a re-analysis of the deposited data

Results flagged for a closer look

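Among 22 sets of 5 libraries, 1 library stood far from the other 4 in 2 cases, where chance alone gives about 1 in 20. Trp53inp1 in BAT ALDR replicate 3 at 26 months was 42.8 CPM, against 21.3 to 25.4 CPM in the other 4, and that library was muscle-rich (4680 CPM of skeletal muscle markers). Gdf15 in WAT DRAL replicate 2 at 26 months was 1.28 CPM, against 0.522 to 0.640 CPM in the other 4.

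The response of Cdkn1c to restriction in WAT differed between ages by -1.29 on the log2 scale in the interaction test. Cdkn1c also separated without overlap in opposite directions in the fat depots. ALDR against AL at 5 months was 1.48 in WAT and -0.48 in BAT, DR against AL at 26 months was 0.77 in WAT and -0.49 in BAT, and DRAL against DR was -1.06 in WAT and 0.13 in BAT. These differences between depots were not tested, and none of the 3 BAT values passed its own test.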

How the results depend on the processing

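Of the 18 called differences of single members, 5 held in every alternative run: Cdkn1a in WAT (ALDR against DRAL, and ALDR against AL at 5 months), Cdkn1c in WAT (DRAL against DR, and ALDR against AL at 5 months) and Trp53inp1 in liver. No fold change of a member changed sign where it or its alternative was called. Calls of members moved as follows, with the cause not tested. DESeq2 gave 1 for WAT ALDR against AL, DRAL against AL and age, 2 for ALDR against DR and the interaction, 1 for BAT DR against AL and ALDR against DRAL, and 2 for BAT ALDR against AL at 5 months, and 5 in place of 4 for WAT ALDR against DRAL. With only the groups compared, there were 0 for WAT ALDR against DR and the interaction, 1 for BAT DR against AL, 2 for BAT at 5 months (Cdkn1c and Trp53inp1) and 3 in place of 4 for WAT DRAL against DR and ALDR against DRAL, and in BAT DRAL against DR the call of Cdkn2b (adjusted p = 0.0837) gave way to Cdkn1a (-0.91, adjusted p = 0.00784). Without the low-count filter there were 0 for BAT DRAL against DR and 2 for liver. Marker covariates gave 1 for WAT DRAL against DR and ALDR against DRAL, 0 for ALDR against DR, 0 for BAT DRAL against DR and 2 for BAT at 5 months. Without the muscle-rich libraries there were 0 for WAT DR against AL and ALDR against DR, 3 for ALDR against DRAL, 2 for DRAL against DR and the interaction, 1 for BAT DR against AL and ALDR against DR, and 0 for BAT DRAL against DR and at 5 months. With a minimum of 20 counts, 2 genes were near the floor in WAT and 4 in liver. Leaving out 1 library gave 1 to 2 for WAT DR against AL, 0 to 1 for DRAL against AL and age, 1 to 4 for DRAL against DR, 0 to 2 for ALDR against DR and the interaction, 2 to 5 for ALDR against DRAL and 2 to 4 at 5 months. In BAT it gave 0 to 1 for DR against AL, ALDR against AL, ALDR against DR and at 5 months, 0 to 0 for DRAL against DR and 0 to 2 for ALDR against DRAL, and in liver 1 to 3. Replicate numbers did not pair the libraries (mean correlation of same-numbered libraries 0.003 in WAT, -0.025 in BAT and -0.189 in liver, with 5 of 22, 4 of 18 and 0 of 6 closest to their own number). A replicate block gave 0 for WAT ALDR against DR and 1 for BAT DR against AL (Cdkn2c). The block also called Cdkn2c in WAT ALDR against DRAL (adjusted p = 0.0193). Depth limits Il6, Cdkn2a and BAT Gdf15.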
